A study of Mus musculus with 2 samples.

Results

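Retinoic acid is the active form of vitamin A, and 9 genes that make it, break it down, carry it or respond to it were followed across the cell types of the fetal mouse testis. The members were the gene rows of the feature table with the symbols *Rdh10*, *Aldh1a1*, *Aldh1a2*, *Aldh1a3*, *Cyp26a1*, *Cyp26b1*, *Crabp1*, *Crabp2* and *Stra8*, and all 9 were found among 32285 genes. Whole testes of E14.5 *Nr5a1-cre; Rosa-tdTomato* embryos were frozen and their nuclei profiled by 10X multiome, which reads RNA and open chromatin (ATAC, cuts by a transposase in accessible DNA) from the same nucleus. The study asked how interstitial progenitors become fetal Leydig cells, the androgen-making cells of the interstitium. All nuclei shared the cre transgene, which is driven by *Nr5a1* sequences, and the reporter, so no group without them was compared, and the sources used here do not give how many embryos were pooled. There was 1 RNA library and 1 ATAC library, so no value below has a replicate, no test between animals was possible, and every interval is a 95% interval for counting error only.

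Retinoic acid is made in a pair of oxidation steps. RDH10 turns retinol into retinaldehyde, and the retinaldehyde dehydrogenases of the ALDH1A family turn retinaldehyde into retinoic acid, which nuclear receptors read in the same or a neighboring cell. CYP26 enzymes degrade it, and CYP26B1 is known for keeping retinoic acid away from the germ cells of the fetal testis, whereas in the fetal ovary retinoic acid precedes *Stra8* and meiosis.

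RNA of the members differed between compartments of the testis. RNA of *Aldh1a1* and of *Cyp26b1* was highest in Sertoli-like and Leydig-like nuclei, RNA of *Aldh1a2* in the surface epithelium-like nuclei, and RNA of *Aldh1a3* in a small *Pax8*-led class. By contrast, *Rdh10* was not 2-fold above all other nuclei in any class. *Stra8*, the response gene, had 28 molecules in the whole dataset, and *Cyp26a1* had 4. Of the 5 members with at least 100 molecules, 2 were at least 2-fold higher in Sertoli-like nuclei than in all other nuclei, against 7.77% of all genes of that depth, and 2 were so in Leydig-like nuclei, against 7.35%. In surface epithelium-like nuclei it was 1 of 5 against 5.48%, and in the *Pax8*-led supporting-like class 1 of 5 against 6.86%. No member was called in the progenitor-like, germ-like or mesonephric mesenchyme-like nuclei, where 6.19%, 16.4% and 4.36% of all genes were.

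Of 9833 barcodes with 122049390 RNA molecules (UMIs) and 38243814 transposase cuts at 109215 peaks, 7198 nuclei were kept, with a median of 7948 UMIs. Clustering of RNA and chromatin together, with the 9 members kept out of the genes used, gave 12 clusters, named from markers as 11 classes. The largest were the progenitor-like (3275 nuclei, in which a contractile-like cluster separated at a higher resolution), germ-like (973), Sertoli-like (831) and Leydig-like (788) classes. The surface epithelium-like (562) and mesonephric mesenchyme-like (405) classes were next. Supporting-like (88), endothelial-like (95), pericyte-like (67), erythroid-like (46) and immune-like (68) nuclei were few. All listed markers of Sertoli, Leydig and germ cells were detected in their own clusters. Any UMI in the whole cluster counted as detection, so this does not test the names. Among the 10 leading genes, the Leydig-like cluster had 1 of its own markers and the Sertoli-like and germ-like clusters 0. Depth differed between classes, with a median of 15521 UMIs in germ-like, 9824 in Sertoli-like, 9629 in Leydig-like, 7891.5 in surface epithelium-like and 6356 in progenitor-like nuclei. Of the kept nuclei, 909 still scored above the automatic doublet threshold, and they made up 5.59% of progenitor-like, 23.4% of germ-like and 36.8% of endothelial-like nuclei.

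*Rdh10*, the retinol dehydrogenase of the first step (chr1:16105774-16133734, mm10), had UMIs in all classes. Relative to all UMIs of the class, *Rdh10* was highest in mesonephric mesenchyme-like and lowest in Sertoli-like nuclei, 4.24-fold (3.31 to 5.45) apart. Its level, in UMIs per 1000000 UMIs of the class (CPM), was 48.7 (41.4 to 57.0) in mesonephric mesenchyme-like nuclei and 36.8 (34.2 to 39.5) in germ-like nuclei, a ratio of 1.32 (1.11 to 1.58). Next, in falling order, were erythroid-like (34.1), surface epithelium-like (31.4), immune-like (30.7), pericyte-like (30.6), progenitor-like (26.6), Leydig-like (23.7) and supporting-like nuclei (23.2), and no class in this run differed from the next beyond its interval. Endothelial-like nuclei were at 18.9 CPM, again within the interval of the class above. The lowest level, 11.5 CPM (9.47 to 13.8), was in Sertoli-like nuclei, the class with the highest *Aldh1a1* level. After thinning each nucleus to 2000 UMIs, so that depth no longer differed, 9.90% (7.17 to 13.2) of mesonephric mesenchyme-like, 5.46% (4.12 to 7.08) of germ-like and 2.66% (1.67 to 4.0) of Sertoli-like nuclei held an *Rdh10* UMI. Before thinning the shares were 26.7%, 43.0% and 10.7%. No class known to lack *Rdh10* was at hand as background, and subtracting the pooled RNA profile, as an estimate of free RNA, took Sertoli-like nuclei to 1.84 CPM and endothelial-like nuclei to 5.06 CPM, against 74.3 CPM in mesonephric mesenchyme-like nuclei. Expression in the lowest classes is therefore not shown. Thinning left out 55 progenitor-like nuclei and 0 to 6 of every other class.

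*Aldh1a1*, a retinaldehyde dehydrogenase, spans chr19:20492715-20643465 with annotated starts at its 5′ end and at position 20601961, inside the longer gene. Its level was 969 CPM (950 to 989) in Sertoli-like and 877 CPM (857 to 897) in Leydig-like nuclei, the first higher by a ratio of 1.11 (1.07 to 1.14). The next class, supporting-like, was at 237 CPM, 3.70-fold (3.27 to 4.2) below Leydig-like nuclei. Sertoli-like nuclei were 5.11-fold (4.98 to 5.25) above all other nuclei and Leydig-like nuclei 4.11-fold (3.99 to 4.22), in each case with the other class among the nuclei compared. The remaining classes held 24.8 to 189.7 CPM, with pericyte-like nuclei lowest. Of thinned nuclei, 76.0% (72.9 to 78.8) of Sertoli-like and 63.2% (59.7 to 66.6) of Leydig-like nuclei held an *Aldh1a1* UMI, against 95.6% and 89.0% before thinning. In germ-like nuclei, set beside these as a class outside the somatic lineages, the thinned share was 7.72% (6.12 to 9.59) and the unthinned one 28.6%. Progenitor-like (7.58%), mesonephric mesenchyme-like (4.95%) and surface epithelium-like nuclei (4.32%) were at or below that share. Supporting-like nuclei, at 17% (9.87 to 26.6), were above it.

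In 5 classes more *Aldh1a1* UMIs than not were in nuclei that scored as doublets or were very deep. In germ-like nuclei 93.9% of *Aldh1a1* UMIs lay in the nuclei above the automatic doublet threshold or above 50000 UMIs, and the level without these fell from 114 to 13.1 CPM. In endothelial-like nuclei such nuclei held 96.4% of the UMIs, in immune-like nuclei 88.5%, in pericyte-like nuclei 52.9% and in supporting-like nuclei 52.6%, but in progenitor-like nuclei 20.9% and in erythroid-like nuclei 19.2%. Without them Sertoli-like nuclei stood at 1114 CPM, Leydig-like nuclei at 1046 CPM, erythroid-like nuclei at 296.8 CPM (228 to 379.7, on 63 UMIs) and supporting-like nuclei at 193.5 CPM (161 to 230.4), so the third place of supporting-like nuclei did not hold. Progenitor-like nuclei were then at 57.2 CPM (54.0 to 60.5), mesonephric mesenchyme-like nuclei at 27.5 CPM and surface epithelium-like nuclei at 24.5 CPM, all above germ-like nuclei, so the order against germ-like nuclei turned with these nuclei. Subtracting the pooled profile instead left *Aldh1a1* at 171.5 CPM in supporting-like, 147.6 CPM in erythroid-like and 38.9 CPM in endothelial-like nuclei. It was at 0 in progenitor-like, germ-like, surface epithelium-like, mesonephric mesenchyme-like, immune-like and pericyte-like nuclei. The pool held 289 CPM of *Aldh1a1*, taken at a share of 0.3849 in progenitor-like and 0.5545 in mesonephric mesenchyme-like nuclei. That is more than the 63.8 and 28.7 CPM found in these classes. The shares were thus too large, and a 0 here is a result below 0 that does not show absence. *Aldh1a7*, a near-identical gene, had the most similar pattern over the 11 classes (Pearson r of log2(CPM + 1) 0.974), and reads may be split between the pair, so both levels are uncertain. *Trmt1l* (0.953) and *Fam155a* (0.95) came next, all as descriptions over classes of unequal depth.

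*Aldh1a2*, the retinaldehyde dehydrogenase known from coelomic epithelia (chr9:71215789-71296243), was concentrated in the surface of the testis. Surface epithelium-like nuclei were at 429.7 CPM (413 to 447), 11.3-fold (10.7 to 12) above all other nuclei, and held 2368 of 5078 UMIs. The ratio was 38.4 with the pooled profile subtracted, a step that removed more *Aldh1a1* from this class than it held. Sertoli-like nuclei came next at 75.5 CPM (70.2 to 81.2), 5.69-fold (5.24 to 6.19) lower. The study named its testicular epithelium by ALDH1A2 staining of a cluster from this library, so the gene's place there is no independent finding, although neither the clusters nor the class names used it here. Immune-like (60.0), progenitor-like (42), pericyte-like (40.8), endothelial-like (37.4), germ-like (27.9), supporting-like (25.8), Leydig-like (17.7), mesonephric mesenchyme-like (14.7) and erythroid-like nuclei (4.86 CPM, 2 UMIs) made up the rest of the order. Neighbors in it were apart beyond their intervals only between immune-like and progenitor-like and between endothelial-like and germ-like nuclei, besides the step below the epithelium. In immune-like nuclei 97.6% and in endothelial-like nuclei 98.9% of the UMIs lay in nuclei above the doublet threshold or above 50000 UMIs. Without these the classes were at 3.94 and 2.05 CPM, below germ-like nuclei (17.6 CPM), so neither place in the order held.

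Of thinned nuclei, 47.3% (43.1 to 51.6) of surface epithelium-like nuclei held an *Aldh1a2* UMI, against 77.6% unthinned. In germ-like nuclei, the background for this gene, the thinned share was 3.30% (2.27 to 4.62), and 66.4% of all their *Aldh1a2* UMIs lay in nuclei above the doublet threshold or above 50000 UMIs. Sertoli-like nuclei at 11% (8.94 to 13.3) and progenitor-like nuclei at 6.96% (6.10 to 7.89) were above that, whereas Leydig-like (3.69%), supporting-like (2.27%) and mesonephric mesenchyme-like nuclei (1.98%) were near or below it. With the pooled profile subtracted, Sertoli-like nuclei were at 81.1 CPM, progenitor-like nuclei at 27.1 CPM and germ-like, Leydig-like, supporting-like and mesonephric mesenchyme-like nuclei at 0. These 0 values are results below 0 and do not show absence. Sertoli-like nuclei had 4.28-fold (3.60 to 5.12) more *Aldh1a2* than Leydig-like nuclei, a wider gap than in *Aldh1a1*. Genes most like it over the classes were *Cpne8* (r 0.915), *Arhgap22* (0.897) and the uroplakin gene *Upk3b* (0.886), the last a marker that named the epithelium.

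*Aldh1a3*, the remaining retinaldehyde dehydrogenase (chr7:66390890-66427517), was highest in the supporting-like class, the nuclei led by *Pax8*. These 88 nuclei held 123 of 205 UMIs, a level of 109.6 CPM (91.1 to 131) and 101-fold (76.0 to 136) that of all other nuclei. The ratio was 184 with doublets removed at the automatic threshold and 499 with the pooled profile subtracted, so its size depends on both. No other class exceeded 4.39 CPM, and surface epithelium-like nuclei held 0 UMIs, which allows up to 0.544 CPM. The thinned share was 20.5% (12.6 to 30.4) in supporting-like and 0.103% in germ-like nuclei. The gene was among the 10 leading genes of this cluster although it had no part in the clustering. *Kdm4a* (r 0.929), *Rwdd4a* (0.906) and *Ogt* (0.906) were most like it, a likeness that rests on 1 class of few nuclei.

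**Figure D1:**
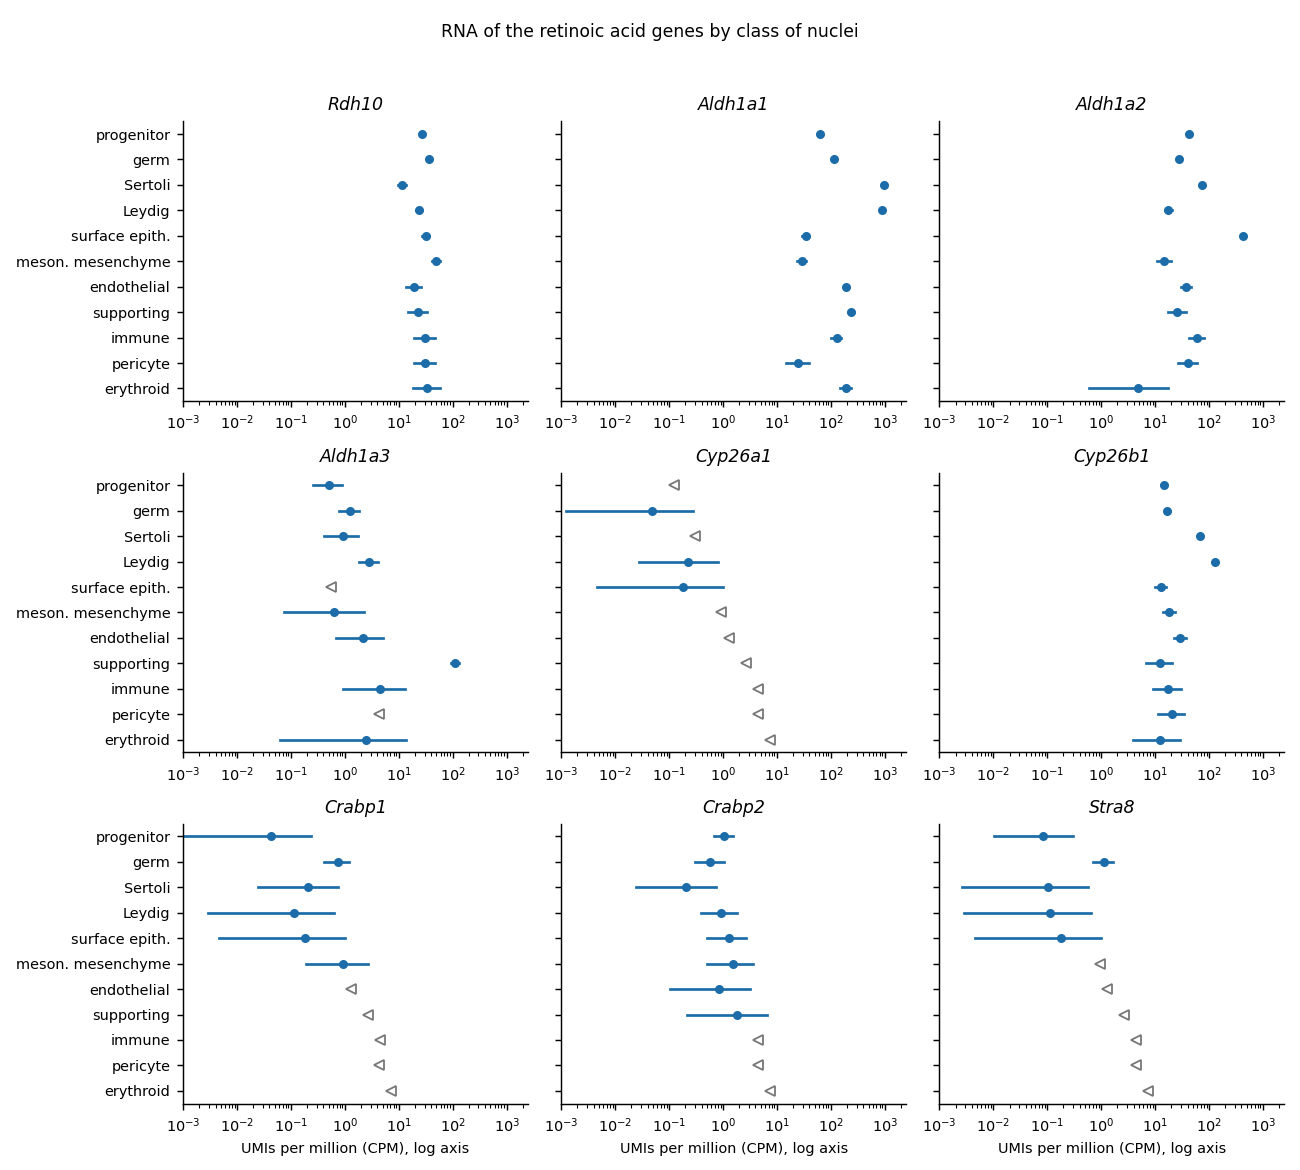
RNA level of the 9 genes (panels) by class of nuclei (rows), as UMIs per 1000000 on a log axis. Points are levels, bars exact 95% Poisson intervals and open triangles the upper limit that a count of 0 allows. Sertoli-like and Leydig-like nuclei are highest for *Aldh1a1* (969 and 877 CPM) and *Cyp26b1* (67.8 and 127 CPM), surface epithelium-like nuclei for *Aldh1a2* (429.7 CPM) and supporting-like nuclei for *Aldh1a3* (109.6 CPM).

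*Cyp26b1* (chr6:84571414-84593908), the main retinoic acid hydroxylase of the fetal testis, was highest in the same classes as *Aldh1a1* but in the opposite order. Leydig-like nuclei were at 127 CPM (119.5 to 134.5) and held 1114 of 2716 UMIs, and Sertoli-like nuclei were at 67.8 CPM (62.8 to 73.2), a ratio of 1.87 (1.70 to 2.06). Against all other nuclei the ratios were 5.4 (5.0 to 5.83) and 2.22 (2.03 to 2.43), and 12.1 and 3.43 with the pooled profile subtracted. Endothelial-like nuclei followed at 29.2 CPM, of which 95.6% of the UMIs lay in nuclei above the doublet threshold or above 50000 UMIs. All other classes were between 12.2 and 20.4 CPM. Thinned shares were 21.5% (18.7 to 24.6) in Leydig-like and 13% (10.8 to 15.5) in Sertoli-like nuclei, against 55.7% and 40.1% unthinned. In germ-like nuclei, the background here, the share was 1.34% (0.715 to 2.28), and 77.3% of all their *Cyp26b1* UMIs lay in nuclei above the doublet threshold or above 50000 UMIs. Mesonephric mesenchyme-like (4.70%, 2.86 to 7.25) and progenitor-like nuclei (2.58%, 2.06 to 3.19) were above it, and surface epithelium-like nuclei at 2.16% (1.12 to 3.74) could not be told from it at this depth. Subtracting the pooled profile put mesonephric mesenchyme-like nuclei at 0, progenitor-like nuclei at 1.43 CPM and germ-like nuclei at 3.0 CPM. That step removed more *Aldh1a1* than each of these classes held. It therefore cannot decide whether their *Cyp26b1* RNA lies above background. *Kcnh1*, a potassium channel gene (r 0.952), *Nectin1* (0.935) and *Rab2b* (0.930) had the most similar pattern.

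UMIs of a synthetic and of a degrading enzyme were found together in some nuclei. Of thinned Leydig-like nuclei 14.52% (12.1 to 17.2) held UMIs of both *Aldh1a1* and *Cyp26b1*, where the product of their single shares is 13.6%. In Sertoli-like nuclei it was 10.5% (8.5 to 12.8) and 9.91%. In surface epithelium-like nuclei *Aldh1a2* and *Cyp26b1* were together in 0.719% (0.196 to 1.83), where the product is 1.02%. In all 3 cases the product lay within the interval of the share.

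*Cyp26a1* (chr19:37697798-37701536), a hydroxylase known to be switched on by retinoic acid itself in many tissues, had 4 UMIs in all. Of these 2 were in Leydig-like, 1 in surface epithelium-like and 1 in germ-like nuclei. Sertoli-like nuclei held 0, which allows up to 0.305 CPM, and progenitor-like nuclei 0, which allows up to 0.125 CPM. *Cyp26c1*, the third family member, had 6 UMIs. The *Cyp26a1* promoter is shown because it holds a direct repeat of the hexamer that retinoic acid receptors bind. The search took pairs of the hexamer AGGTCA or its variant GGGTCA, the variant AGTTCA or the variant GGTTCA in the same direction, spaced by 5 bases, on both strands, and 0.0974% of 32851 RefSeq promoter windows held such a repeat. The match lies on the opposite strand, at bases 219 to 235 of the window, counted from its 5′ end, and is in capitals in this window of chr19:37697558-37697857 on the plus strand (GRCm38.p6, RefSeq):

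Cyp26a1 promoter: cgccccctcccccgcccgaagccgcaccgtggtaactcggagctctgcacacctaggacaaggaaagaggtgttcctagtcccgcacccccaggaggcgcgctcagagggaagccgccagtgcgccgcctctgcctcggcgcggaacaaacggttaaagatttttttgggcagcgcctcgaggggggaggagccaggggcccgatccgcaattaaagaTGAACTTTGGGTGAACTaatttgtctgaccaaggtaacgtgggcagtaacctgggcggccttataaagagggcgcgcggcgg

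*Crabp1* and *Crabp2* encode cytosolic carriers of retinoic acid, and neither was abundant. *Crabp1* had 23 UMIs, of which 15 were in germ-like nuclei (0.732 CPM, 0.410 to 1.21), 5.17-fold (2.06 to 14.1) the level of all other nuclei, and 3 in mesonephric mesenchyme-like nuclei (0.937 CPM). The germ-like ratio was 10.05 with the automatic doublet threshold and 8.045 with the pooled profile subtracted. Most of the germ-like signal did not lie in doublet-scored nuclei, since 13.3% of it was lost without them. *Crabp2* had 63 UMIs spread over 8 classes at 0.203 to 1.78 CPM, with no neighboring classes apart beyond their intervals.

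*Stra8*, which marks germ cells about to enter meiosis and is induced by retinoic acid, was scarcely detected. Germ-like nuclei held 23 of 28 UMIs, in 13 of 973 nuclei (1.34%, 0.713 to 2.27), a level of 1.12 CPM (0.711 to 1.68) and 12.7-fold (4.71 to 42.7) that of all other nuclei. With the classes drawn at resolution 0.6 the ratio was 3.395 (1.49 to 7.65). No other class held more than 2 UMIs. Among the clusters of resolution 0.6, a germ-class cluster of 346 nuclei that stayed unnamed and had *Lhx1* and *Sohlh2* among its 10 leading genes held 10 UMIs (2.06 CPM, 0.990 to 3.80), the main germ-like cluster held 12 (1.12 CPM, 0.580 to 1.96) and a cluster of 78 germ-like nuclei with a median of 34669.5 UMIs held 1. The *Stra8* promoter is shown for comparison with that of *Cyp26a1*. It held no direct repeat spaced by 1, 2 or 5 bases, but AGGTCA stood alone at bases 57 to 62 and 213 to 218 of the window (capitals). At least 1 of the 4 hexamers, on either strand, was in 43.7% of promoter windows. The window is chr6:34920698-34920997, plus strand, GRCm38.p6:

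Stra8 promoter: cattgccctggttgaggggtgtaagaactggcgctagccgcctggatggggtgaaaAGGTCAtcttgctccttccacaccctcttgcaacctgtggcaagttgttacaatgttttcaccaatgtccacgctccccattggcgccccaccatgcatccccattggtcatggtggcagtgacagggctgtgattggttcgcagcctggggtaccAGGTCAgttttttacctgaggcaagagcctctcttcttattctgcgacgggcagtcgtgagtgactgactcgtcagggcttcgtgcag

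**Figure D2:**
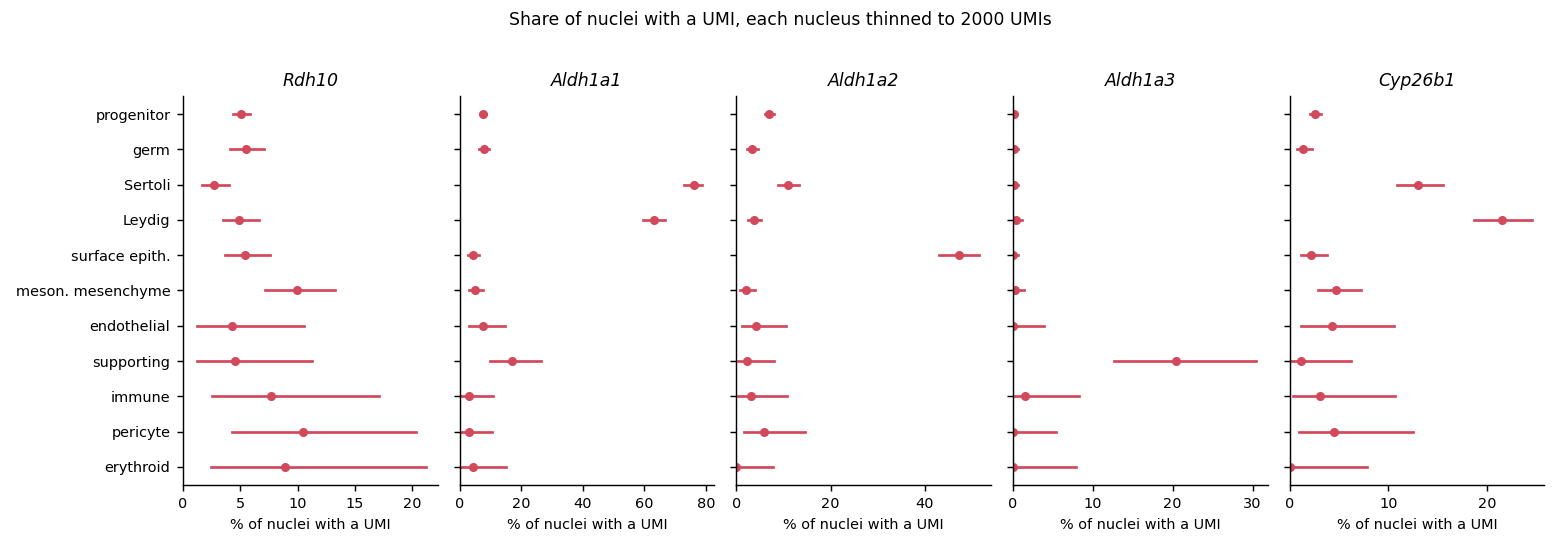
Share of nuclei with at least 1 UMI of each gene after thinning every nucleus to 2000 UMIs, by class, as % of nuclei with 95% Clopper-Pearson intervals; the 5 genes with at least 100 UMIs are shown. For *Aldh1a1* Sertoli-like (76.0%) and Leydig-like nuclei (63.2%) stand far above germ-like nuclei (7.72%), and for *Aldh1a2* surface epithelium-like nuclei (47.3%) stand far above germ-like nuclei (3.30%).

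For the step from interstitial progenitors to fetal Leydig cells, progenitor-like and Leydig-like nuclei were compared. Leydig-like nuclei had 13.7-fold (13 to 14.52) more *Aldh1a1* and 8.77-fold (7.77 to 9.93) more *Cyp26b1*, whereas progenitor-like nuclei had 2.38-fold (2.01 to 2.84) more *Aldh1a2*. These folds depend on the processing. Subtracting the pooled profile gave *Aldh1a1* 1197 against 0 CPM, *Cyp26b1* 177 against 1.43 CPM and *Aldh1a2* 0 against 27.1 CPM in Leydig-like and progenitor-like nuclei. Both 0 values are results below 0, from a share that was too large, so the part of free RNA in the folds was not measured. *Rdh10* differed by less than its interval (1.12-fold, 0.96 to 1.32). Of the 4 members deep enough to compare, 1 was at least 2-fold higher in progenitor-like nuclei, against 14.6% of 12242 genes, and 2 at least 2-fold lower, against 10.7%. For the members the median of the log2 ratios, progenitor-like over Leydig-like, was -1.48, and for all genes -0.02. Among the clusters of resolution 0.6 made mostly of progenitor-like nuclei, *Aldh1a2* was at 49.8 CPM (45.6 to 54.4) in the cluster of 1531 nuclei, of which 97.1% belonged to that class. It was at 49.6 CPM (44.8 to 54.9) in the cycling cluster and 20.8 CPM (17.5 to 24.6) in the contractile-like cluster with *Myh11* among its leading genes. In the same order *Aldh1a1* was at 116.5, 59.9 and 32.8 CPM and *Cyp26b1* at 22.4, 14.25 and 11.8 CPM. The Leydig-like cluster of that resolution was at 871 and 123 CPM. Its folds over the cluster of 1531 nuclei, which also held nuclei of other classes, are thus smaller than those above. These levels were not corrected for free RNA.

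Other genes of the pathway were read from a list of 33, of which 32 were found and 21 had at least 100 UMIs. Genes named here beyond the 3 of most UMIs in each role were named after their values were seen. In Leydig-like nuclei 3 of the 21 (14.3%, against 7.35% of all genes) were at least 2-fold higher, all of them oxidoreductases that act on retinol or retinaldehyde. These were *Adh1*, an alcohol dehydrogenase (199.5 CPM, 28.1-fold, 25.4 to 31.1), *Dhrs3*, which reduces retinaldehyde back to retinol (91.8 CPM, 3.68-fold, 3.38 to 4.0), and *Adh5* (52.7 CPM, 2.39-fold, 2.14 to 2.65). In surface epithelium-like nuclei 3 were (14.3% against 5.48%; *Dhrs4*, *Gm4969* and *Tgm2*), the transglutaminase gene *Tgm2* at 67.0 CPM (4.34-fold, 3.85 to 4.89). In progenitor-like nuclei 2 were (9.52% against 6.19%, *Rarb* and *Rarres2*), and both were also at least 2-fold higher in mesonephric mesenchyme-like nuclei. The receptor gene *Rarb* was at 102 CPM in mesonephric mesenchyme-like and 72.3 CPM in progenitor-like nuclei but at 11.9 to 20.2 CPM in Sertoli-like, germ-like and Leydig-like nuclei. *Rara* was more even, from 39.95 CPM in Sertoli-like to 21.8 CPM in Leydig-like nuclei among the large classes, and *Rxra* ranged up to 19 CPM. In germ-like nuclei 4 were (*Rarg*, *Rec8*, *Gm4969* and *Sycp3*), a share of 19% near the 16.4% of all genes, with the meiotic gene *Sycp3* at 32.4 CPM (15.4-fold, 12.7 to 18.9). In Sertoli-like nuclei 2 were (*Rarres1* and *Ncoa7*), 9.52% near the 7.77% of all genes, with *Ncoa7* at 569 CPM (4.69-fold, 4.54 to 4.86), and in supporting-like nuclei 3 (*Stra6*, *Rec8* and *Ncoa7*), 14.3% against 6.86%. The median log2 ratio of the list ran from -0.97 in germ-like to 0.17 in mesonephric mesenchyme-like nuclei, against 0.04 and -0.27 for all genes.

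Chromatin at the members was read on classes clustered from RNA alone, so that the peaks had no part in making them. There the larger progenitor cluster of 2574 nuclei stayed unnamed. The reason was that *Myh11*, a contractile marker, was among its 10 leading genes and no progenitor marker was. In the chromatin results the name progenitor-like therefore covers only a cluster of 800 nuclei. *Lockd* and *Troap* were among its 10 leading genes, as in the cycling cluster above. It is not the class of 3275 nuclei used for RNA, although 95.25% of its nuclei belonged to that class. Within 50 kb of the annotated starts lay 83 peaks with 54 to 1630 cuts, of which 9 were promoter peaks, within 1 kb of a start. Levels are cuts per 1000000 cuts at peaks of the class. Both ends of a fragment are counted as cuts, and 87.4% of the nonzero values at peaks were even, so intervals on cuts are too narrow. Over all genes, 90.7% of those with at least 100 UMIs and 30.7% of the others had a promoter peak.

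At *Aldh1a1*, accessibility and RNA lay in the same classes. Its promoter peaks held 222 cuts, with 29.9 per 1000000 (23.1 to 38.0) in Leydig-like, 27.9 (22.2 to 34.5) in Sertoli-like, 21.9 (8.02 to 47.6, on 6 cuts) in supporting-like, 4.92 in germ-like and 3.27 in the unnamed cluster. Leydig-like nuclei were 4.75-fold (3.50 to 6.37) and Sertoli-like nuclei 4.85-fold (3.65 to 6.4) above all other nuclei. Surface epithelium-like nuclei held 0 cuts, which allows up to 1.61 per 1000000, and mesonephric mesenchyme-like nuclei 0, which allows up to 2.64. Most of this was at the downstream start, which had 93 fragments within 500 bp against 26 at the upstream start. The peak there (chr19:20601552-20602412, 164 cuts) was also, among peaks of at least 100 cuts within 50 kb, the one with the largest ratio, 6.14 (4.38 to 8.53) for Leydig-like nuclei. By contrast an intron peak at chr19:20562144-20563037 (122 cuts), named after its values were seen, was highest in Sertoli-like nuclei at 16.6 per 1000000 (5.53-fold, 3.77 to 8.04).

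At *Aldh1a2*, promoter accessibility did not follow RNA. The promoter peak (chr9:71215162-71216102, 884 cuts) was highest in germ-like nuclei, at 53.2 cuts per 1000000 (46.8 to 60.3) and 1.87-fold (1.61 to 2.17) above all other nuclei (1.56, 1.26 to 1.91, on unique fragments), although these had 0.350-fold the RNA of the rest. In surface epithelium-like nuclei it was at 39.2 (30.7 to 49.3), a ratio of 1.21 (0.942 to 1.54) where RNA had 11.3. The promoter ratio was 1.32 (1.03 to 1.67) with classes from RNA and chromatin together and 1.31 (1.02 to 1.67) with no doublet removal, both above 1. On unique fragments it was 1.26 (0.881 to 1.75), with the automatic doublet threshold 1.24 (0.93 to 1.63) and scaled by nuclei 1.05 (0.817 to 1.34). These intervals included 1. Sertoli-like (31.2), Leydig-like (29.4), unnamed (28.2), progenitor-like (25.6, the cluster of 800 nuclei only) and mesonephric mesenchyme-like nuclei (20.3) were lower. An intron peak 25711 bp downstream of the start (chr9:71241500-71242408, 581 cuts), also named after its values were seen, had its highest level in surface epithelium-like nuclei at 39.7 (1.97-fold, 1.52 to 2.52). The peak with the largest ratio among those of at least 100 cuts (chr9:71179699-71180607) rested on 3 cuts in pericyte-like nuclei.

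The promoters of this pair are shown because they differ in CG pairs, in capitals below. The *Aldh1a2* window (chr9:71215539-71215838) held 50 CG pairs in 300 bases, a number reached by 0.855% of RefSeq promoter windows, whose median was 7. The *Aldh1a1* window at the downstream start (chr19:20601718-20602017) held 1, a number reached by 94.6%. Both are on the plus strand of GRCm38.p6:

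Aldh1a2 promoter: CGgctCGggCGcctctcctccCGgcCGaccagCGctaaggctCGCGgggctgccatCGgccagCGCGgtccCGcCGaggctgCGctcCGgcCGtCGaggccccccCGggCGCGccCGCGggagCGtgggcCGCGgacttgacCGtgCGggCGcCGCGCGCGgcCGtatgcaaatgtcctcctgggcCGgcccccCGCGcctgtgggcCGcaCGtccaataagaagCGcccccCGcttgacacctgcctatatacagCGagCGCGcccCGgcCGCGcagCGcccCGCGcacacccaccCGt
Aldh1a1 downstream promoter: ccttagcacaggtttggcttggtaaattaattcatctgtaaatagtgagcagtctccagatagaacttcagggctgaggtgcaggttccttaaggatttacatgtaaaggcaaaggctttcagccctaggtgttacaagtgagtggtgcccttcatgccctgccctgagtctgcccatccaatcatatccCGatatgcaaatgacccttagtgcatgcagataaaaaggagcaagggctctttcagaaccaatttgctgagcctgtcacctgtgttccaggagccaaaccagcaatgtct

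The *Rdh10* promoter peak (chr1:16104592-16105268, 1201 cuts) lies 506 bp before its start and overlaps an exon of *Rpl7*, a ribosomal protein gene, so accessibility of the pair cannot be told apart at this peak. It was between 41.8 and 49.4 cuts per 1000000 in all classes of over 300 nuclei, including Sertoli-like nuclei (43.2), where *Rdh10* RNA was lowest. Within 500 bp of the *Rdh10* start itself lay 548 unique fragments. In classes of over 300 nuclei their ratio over all other nuclei ran from 0.744 (0.490 to 1.09) in surface epithelium-like to 1.17 (0.858 to 1.56) in Leydig-like nuclei. In Sertoli-like nuclei it was 0.785 (0.576 to 1.05). The *Aldh1a3* promoter peak (chr7:66427150-66428043, 305 cuts) was highest in supporting-like nuclei at 36.4 on 10 cuts (3.30-fold, 1.57 to 6.15), against a 101-fold ratio in RNA. On unique fragments, 5 in that class, the interval included 1 (2.77-fold, 0.887 to 6.6). Among classes of over 300 nuclei the peak ranged from 6.34 in Leydig-like to 14.1 in mesonephric mesenchyme-like nuclei. The peak of at least 100 cuts with the largest ratio near it (chr7:66438828-66439797) was also highest there, at 29.1 on 8 cuts (5.48-fold, 2.32 to 11.1, or 4.79-fold, 1.27 to 12.8, on 4 unique fragments).

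**Figure D3:**
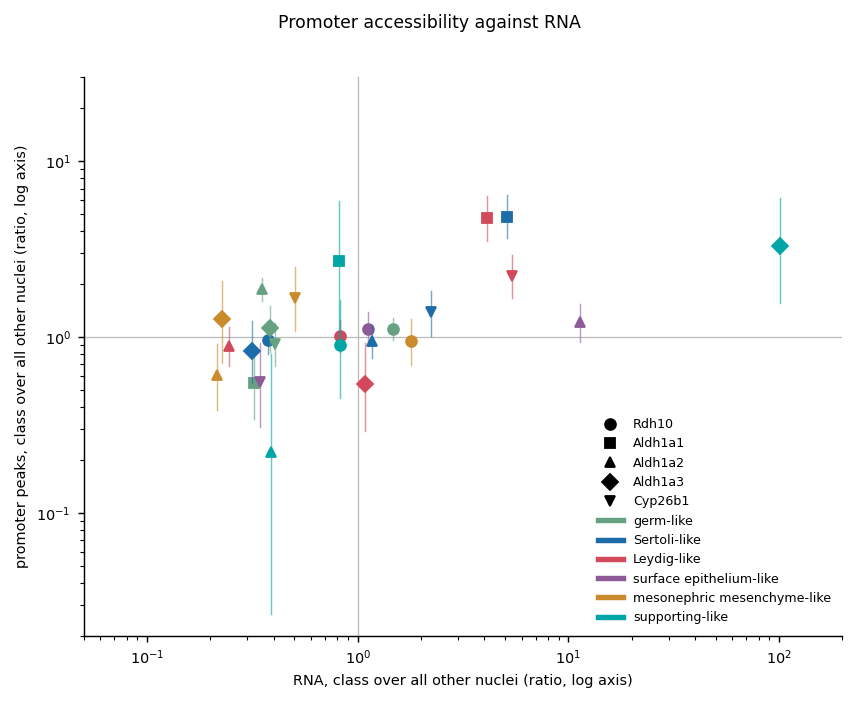
Promoter accessibility (y axis, ratio of cuts per 1000000, classes clustered from RNA alone) against RNA (x axis, ratio of CPM, classes clustered from both assays) for 6 classes against all other nuclei, both axes log; vertical bars are 95% intervals, points with 0 counts on either scale are left out. *Aldh1a1* in Sertoli-like and Leydig-like nuclei lies near the diagonal (RNA 5.11 and 4.11, promoter 4.85 and 4.75), whereas *Aldh1a2* in surface epithelium-like nuclei (11.3 and 1.21) and *Aldh1a3* in supporting-like nuclei (101 and 3.30) lie far below it.

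At *Cyp26b1* few fragments lay at the annotated 5′ start, 21 fragments within 500 bp against 130 at the downstream start. The promoter peak (chr6:84588605-84589479, 379 cuts), 925 bp from the downstream start, was at 28.5 (21.9 to 36.5) in Leydig-like, 22.9 in mesonephric mesenchyme-like, 18.6 (14 to 24.1) in Sertoli-like, 13.2 in unnamed and 13 in germ-like nuclei. The ratio over all other nuclei was 2.24 (1.68 to 2.94) for Leydig-like and 1.38 (1.02 to 1.84) for Sertoli-like nuclei, beside RNA ratios of 5.4 and 2.22. For Sertoli-like nuclei the interval included 1 on unique fragments (1.24, 0.807 to 1.84). The window of 500 bp around the downstream start leaves this peak out. Unique fragments there, scaled by all fragments, had a ratio of 1.16 (0.582 to 2.10) in Leydig-like nuclei. In Sertoli-like nuclei it was 0.998 (0.541 to 1.72), so a higher level at the start itself is not shown for either class. Larger ratios lay past the 3′ end of the gene. The intergenic peaks chr6:84569627-84570473 (288 cuts) and chr6:84562608-84563486 (256 cuts), 17207 and 24194 bp downstream of the nearest start and named after their values were seen, were at 35.3 and 36.2 in Leydig-like nuclei. Their ratios over all other nuclei were 4.17 (3.17 to 5.43) and 5.10 (3.87 to 6.68). The largest ratio near *Cyp26b1* among peaks of at least 100 cuts was at chr6:84581661-84582229, on 4 cuts in erythroid-like nuclei.

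The middle 300 bases of the farther Leydig-like peak are shown because they hold CAAGGTC, the core bound by NR5A1, the steroidogenic factor of Leydig cells, at 2 places. The search was for CAAGGTC or, as a variant, CAAGGCC on both strands. At least 1 match of either form was in 19.7% of 109163 peak middles and 9.88% of promoter windows. How often 2 matches, or CAAGGTC without the variant, occur was not counted. The core or its variant was also in the middles of the nearer Leydig-like peak, of a *Cyp26b1* intron peak (chr6:84583130-84584004), of the *Cyp26a1* peak highest in Sertoli-like nuclei and of a *Crabp1* peak, so it was not particular to Leydig-like peaks. Both matches are on the opposite strand and in capitals (chr6:84562897-84563196, plus strand, GRCm38.p6):

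Cyp26b1 downstream peak: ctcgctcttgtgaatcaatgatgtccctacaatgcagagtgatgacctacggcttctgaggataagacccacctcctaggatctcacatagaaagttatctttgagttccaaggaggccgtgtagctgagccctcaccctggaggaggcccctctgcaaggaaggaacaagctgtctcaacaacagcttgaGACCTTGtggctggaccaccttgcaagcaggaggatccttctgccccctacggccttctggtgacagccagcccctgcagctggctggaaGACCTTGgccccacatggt

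**Figure D4:**
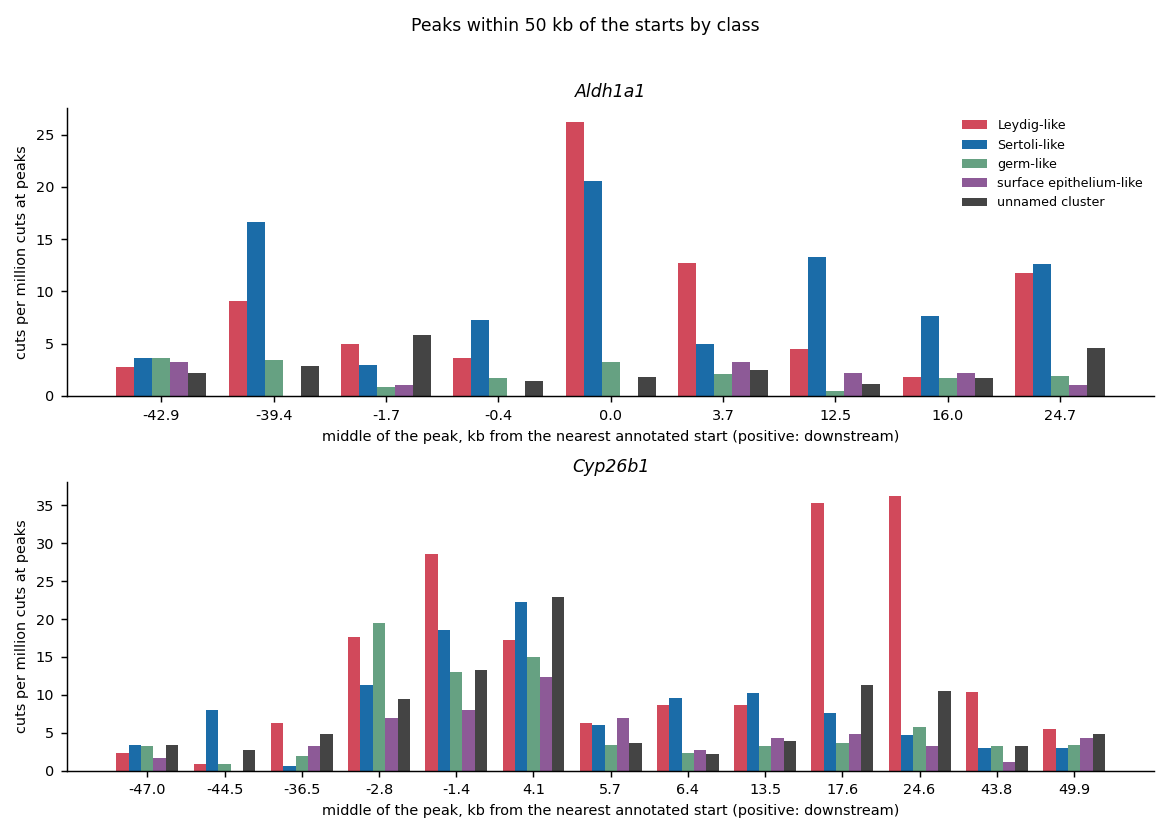
Accessibility of each peak within 50 kb of the starts of *Aldh1a1* (top) and *Cyp26b1* (bottom) as cuts per 1000000 cuts at peaks (bars from 0) in 5 classes, with peaks ordered by distance of their middle from the nearest start in kb. At *Aldh1a1* the peak at the downstream start is high in Leydig-like (26.3) and Sertoli-like nuclei, and at *Cyp26b1* the pair of intergenic peaks past the 3′ end is high in Leydig-like nuclei (35.3 and 36.2).

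The scarce members were not uniformly closed. The *Cyp26a1* promoter (chr19:37697398-37698272, 141 cuts) was, among classes of over 100 nuclei, highest at 10.5 cuts per 1000000 (7.75 to 13.8) in germ-like and 10.2 (6.14 to 15.9) in surface epithelium-like nuclei, 2.54-fold (1.76 to 3.63) and 2.10-fold (1.22 to 3.42) above all other nuclei, with 1 UMI of RNA in each. A peak 18808 bp from it (chr19:37716606-37717542, 117 cuts) was highest in Sertoli-like nuclei, at 13.9 (4.46-fold, 2.98 to 6.59). The *Crabp1* promoter peaks (353 cuts) were at 19.5 (15.7 to 23.9) in germ-like nuclei, 1.66-fold (1.29 to 2.11) above all other nuclei. By unique fragments within 500 bp of the start, scaled by all fragments, the ratio was 1.06 (0.665 to 1.63), so a higher level there is not shown. That window leaves out the promoter peak chr9:54765579-54766364 (118 cuts). At this peak germ-like nuclei were highest among classes of over 100 nuclei, at 8.76 on 41 cuts, with Sertoli-like nuclei next at 5.64. Supporting-like nuclei were at 14.6 on 4 cuts at this peak and at 36.4 on 10 cuts over both promoter peaks. The *Crabp1* peak with the largest ratio among those of at least 100 cuts rested on 2 cuts. *Crabp2* had no promoter peak, the nearest lying 3453 bp away, but 107 unique fragments lay within 500 bp of its start. They were most frequent, among classes of over 100 nuclei, in surface epithelium-like nuclei (18 fragments, 2.79-fold, 1.58 to 4.67, above all other nuclei). *Stra8* had none either, and its nearest peak, 5899 bp inside the gene (chr6:34926909-34927902, 128 cuts), was highest in germ-like nuclei at 9.83 (2.67-fold, 1.82 to 3.88).

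**Figure D5:**
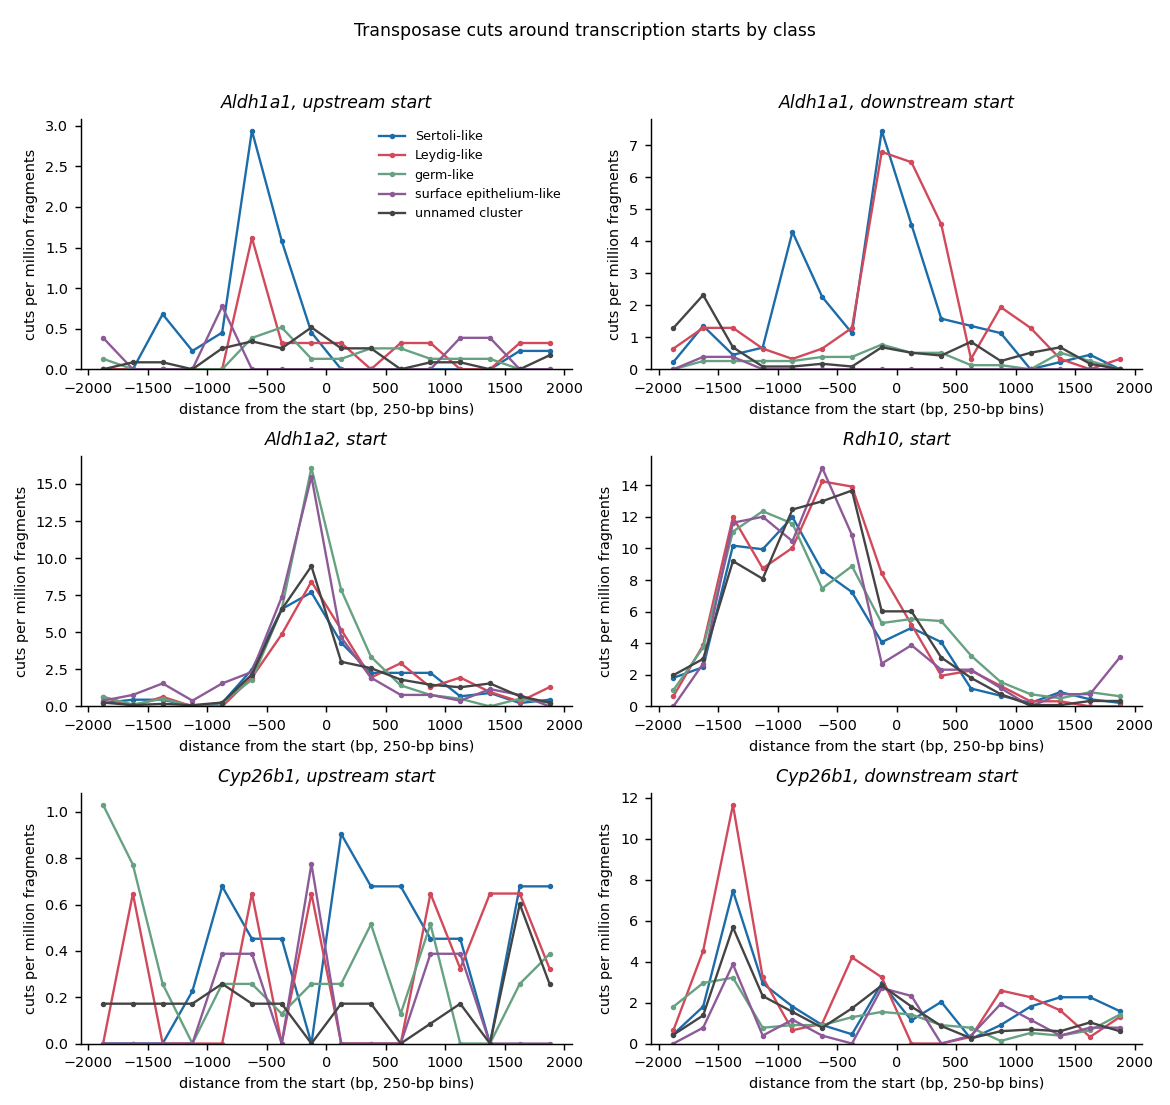
Transposase cuts per 1000000 fragments of the class in bins of 250 bp around 6 annotated starts (x axis, distance from the start in bp, positive downstream) for 5 classes; each panel has its own y axis from 0. Sertoli-like and Leydig-like nuclei rise above the other classes at the downstream start of *Aldh1a1* (93 fragments within 500 bp), all 5 classes share the peaks at *Aldh1a2* and *Rdh10*, and the upstream start of *Cyp26b1* is flat at low counts (21 fragments within 500 bp).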

How the data were processed

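RNA and open chromatin were measured in the same nuclei of 1 preparation of E14.5 testes. The authors mapped reads to mm10 with Cell Ranger ARC 2.0.1 and deposited raw counts for each nucleus (UMIs for genes, transposase cuts for peaks) and a list of fragments. Nuclei were kept with these of the study's limits: more than 500 genes, less than 10% mitochondrial, 10% ribosomal and 0.5% hemoglobin UMIs, 250 to 25000 fragments at peaks, and more than 20% of the fragments there (7668 nuclei). The study's limit on fragments in blacklisted regions was not applied here. Scrublet (scanpy 1.11.5) ranked doublets, and the top 0.8% per 1000 nuclei (470 nuclei, 6.13%) were removed. The study's own doublet caller and removal of ambient RNA were not used here, so classes are rebuilt and may differ from the study's.

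Nuclei were clustered in R 4.3.3 with Seurat 5.3.0 on 2000 variable genes without the members, 30 components and both assays (resolution 0.3), or from RNA alone for chromatin results. A cluster took the class with the highest mean standardized level of its markers. It stayed unnamed with fewer than 3 detected markers, with more markers of another class among its 10 leading genes, or with low depth. Levels are summed UMIs per 1000000 with exact Poisson intervals, ratios have exact conditional binomial intervals and shares Clopper-Pearson intervals (scipy 1.17.1). Genes with at least 100 UMIs (15216) were compared, and a class was called past a fold of 2. A count of 0 was given an upper limit of 3 counts. UMIs were not corrected for gene length, so levels of different genes are not compared.

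Named were all members, up to 3 pathway genes per role by UMI count, the 3 genes most like each member with at least 200 UMIs (among genes with at least 500), and the promoter peak of most cuts and the peak of largest ratio within 50 kb. Members and lists were chosen with earlier results of these data known. The ratios and their intervals were tested on simulated data drawn as independent counts, the model that the intervals assume. That test cannot show how they hold where UMIs are clumped in few nuclei. *Aldh1a2* in immune-like nuclei, for example, had 41 UMIs in 3 nuclei, so intervals on RNA can be too narrow as well. Sequences are from RefSeq tables of GRCm38.p6, with promoter windows for 6 of the 9 members. *Rdh10*, *Aldh1a3* and *Crabp2* had no entry. In all, 17 alternatives were tried. Some results on genes of the pathway list and leading genes of clusters are not reported here.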

Additional observations from a re-analysis of the deposited data

How the results depend on the processing

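With 1 library of each kind, depth limits *Stra8*, *Cyp26a1*, *Crabp1* and *Crabp2* to a few molecules, and the classes are inferred. No paired analysis was possible because each assay had 1 library. The *Aldh1a2* ratio in surface epithelium-like nuclei (11.3) was 10.3 with no doublet removal, 14.3 with the automatic Scrublet threshold, 10.1 with minimums raised to 1000 genes and to 1000 fragments, 12.2 without nuclei over 50000 UMIs, 12.8 as a mean over nuclei and 38.4 with the pooled profile subtracted. The *Cyp26b1* ratio in Sertoli-like nuclei (2.22) was 2.03 with no doublet removal, 2.65 with the automatic threshold, 2.02 with classes from chromatin alone and 3.43 with the pooled profile subtracted, and its promoter ratio (1.38) was 1.90 with the automatic threshold, but 1.24 (0.807 to 1.84) on unique fragments and 1.34 (0.993 to 1.79) scaled by nuclei, both with 1 in the interval. The *Stra8* ratio in germ-like nuclei (12.7) was 3.40 at resolution 0.6, where 346 nuclei of the germ class stayed unnamed and so joined the other nuclei, and it could not be computed after subtraction. The *Aldh1a2* ratio in Sertoli-like nuclei (1.17) turned to 0.992 with classes from chromatin alone, and the cause was not tested. The supporting-like and mesonephric mesenchyme-like classes were not named from chromatin alone. For the *Aldh1a2* and *Cyp26b1* ratios above and the *Stra8* ratio, with the *Aldh1a2* promoter ratio of 1.21, 29 values under the alternatives lay within the counting interval of the main value and 12 outside it, and for the other ratios 59 lay within and 27 outside, besides the reversed one. *Aldh1a1* stayed at 4.52 to 8.43 in Sertoli-like and 3.64 to 5.94 in Leydig-like nuclei, *Cyp26b1* at 4.49 to 12.1 in Leydig-like nuclei and *Aldh1a3* at 91.2 to 499 in supporting-like nuclei. The upper end of each range, like the 38.4 and 3.43 above, came from subtracting the pooled profile, which removed too much in some classes.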

Other observations

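Finer clusters split the compartments that held the synthetic enzymes. At resolution 0.6 the 599 Sertoli-like nuclei of the larger cluster were at 1047 CPM of *Aldh1a1* and those of the other cluster (233 nuclei, median 13856 UMIs) at 850 CPM, whereas *Cyp26b1* was at 64.1 and 76.3 CPM. Surface epithelium-like nuclei also formed a pair of clusters, with *Upk1b* and *Mybpc1* respectively among their 10 leading genes, and *Aldh1a2* was at 414 and 509 CPM.

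In Sertoli-like nuclei thinned to 2000 UMIs, *Aldh1a1* and *Aldh1a2* were found together in 8.45% (6.65 to 10.6), where the product of their single shares is 8.35%. In surface epithelium-like nuclei *Aldh1a2* and *Rdh10* were found together in 2.34% (1.25 to 3.97), where the product is 2.55%. These shares are of nuclei of 1 library, and none of the differences was tested.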
